A study of Sus scrofa with 5 samples.

Results

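The hedgehog pathway was followed through ovarian follicles of the pig by 9 genes, taken by symbol from the 30822 genes listed in every library: the ligands IHH and DHH, the receptor PTCH1, the signal transducer SMO, the transcription factors GLI1, GLI2 and GLI3, and the inhibitors HHIP and SUFU. Each symbol had 1 row, and all 9 genes passed the filter on low values (2 or more libraries with an FPKM of at least 1) that left 13087 genes to be tested. The animals were female domestic pigs (Sus scrofa) of the Indian Ghoongroo breed, and whole follicles gave 3 libraries labelled large and 2 labelled small. No other treatment, genotype or age is given in the labels. The titles call the libraries biological replicates, and whether each came from a different animal, how many follicles it held and how wide they were are not given in the labels. The p-values below therefore measure only the spread between these samples.

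Hedgehog ligands are secreted proteins that bind PTCH1, which otherwise holds SMO silent at the primary cilium. Active SMO releases the GLI factors from SUFU, and the cell then transcribes GLI1, PTCH1 and HHIP, so RNA of these genes is widely used as a readout of the pathway, while PTCH1 and HHIP also bind ligand and damp it. In the follicle of the mouse the ligands are made by granulosa cells, which line the cavity around the oocyte, and the responding cells lie in the theca, the steroid-forming layer outside them. In RNA from whole follicles the cell of origin is not seen, and fewer cells of a type and less RNA per cell cannot be told apart.

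Library totals, worked back from the FPKM values, ranged from 9523739 to 11507527 fragments. FPKM, the number of fragments per unit of gene length and of library size, is the scale of every level given here. Markers of the labelled tissue were present in all libraries: the granulosa gene INHA lay between 2876 and 11740 FPKM, the theca gene CYP17A1 between 145 and 2451 FPKM, and the oocyte gene GDF9 between 13.9 and 20.8 FPKM. Large follicle replicate 2 held the lowest of the 5 values for 43.0% of all genes tested and small follicle replicate 2 the highest for 45.9%. Scaling by the median of ratios across genes gave these libraries factors of 0.827 and 1.20, and values after this scaling are given beside those as deposited where they are discussed.

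The ligand IHH carried the widest difference of the 9 genes between the follicle sizes, and small follicles held more of it in both libraries. IHH (gene 397174, Sscrofa11.1 chromosome 15, 121083750 to 121090548) had 15.0, 2.10 and 11.4 FPKM in large follicle replicates 1, 2 and 3, and 46.2 and 85.3 FPKM in small follicle replicates 1 and 2. The groups did not overlap, and the lowest library was large follicle replicate 2, where the value rested on 51 fragments against 2083 in small follicle replicate 2. The means were 9.51 ± 6.67 FPKM (SD, n = 3) in large and 65.7 ± 27.7 FPKM (SD, n = 2) in small follicles, 6.91-fold higher in the small ones. On a log2 scale of FPKM + 1, where differences of weakly expressed genes are compressed, the difference of large minus small was -2.91 ± 0.60 (SE), with a limma adjusted p = 0.0648 (Benjamini-Hochberg over the 13087 genes), so IHH missed the threshold of 0.05. The call turned on single libraries and on the scaling. The limma adjusted p was 0.000382 without large follicle replicate 2, 0.00161 without large follicle replicate 3 and 0.0186 without small follicle replicate 1, fits that called 2.19%, 1.63% and 0.574% of all genes. It was 0.0901 without large follicle replicate 1 and 0.143 without small follicle replicate 2, and 0.0427 with median-of-ratios scaling, which called 1.54% of all genes. IHH was also called with libraries scaled to a common sum and with a pseudocount of 5, in fits that called 1.16% and 0.818% of all genes. Over every alternative run it lay between 1.44e-10, with a replicate block that left 1 residual degree of freedom, and 0.262, with no filter.

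The other ligand, DHH, was scarce and gave no such separation. DHH (gene 100505406, chromosome 5, 15114524 to 15119610), known from the testis and from nerve sheaths as well as the ovary, had 1.47, 0.897 and 1.41 FPKM in large follicles and 0.886 and 2.57 FPKM in small follicles. The small follicle libraries lay on either side of the large ones, as the lowest and the highest of the 5. The log2 difference of large minus small was -0.21 ± 0.32 (SE; limma adjusted p = 0.899), from 16 to 49 fragments per library, and it turned to 0.25 without small follicle replicate 2. IHH made up most of the measured ligand RNA: 91.1%, 70.1% and 89.0% of the summed FPKM of IHH, DHH and SHH in large follicles, and 98.1% and 97.1% in small follicles. SHH, the third ligand of the family, had 0 fragments in all 5 libraries. At 3 fragments and the listed gene length this allows up to 0.190 to 0.229 FPKM per library. The length behind the FPKM cannot be found for a gene without fragments, and a shorter one would raise this bound. IHH exceeded DHH 2.34-fold in large follicle replicate 2 and 52.1-fold in small follicle replicate 1, the ends of the range.

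**Figure D1:**
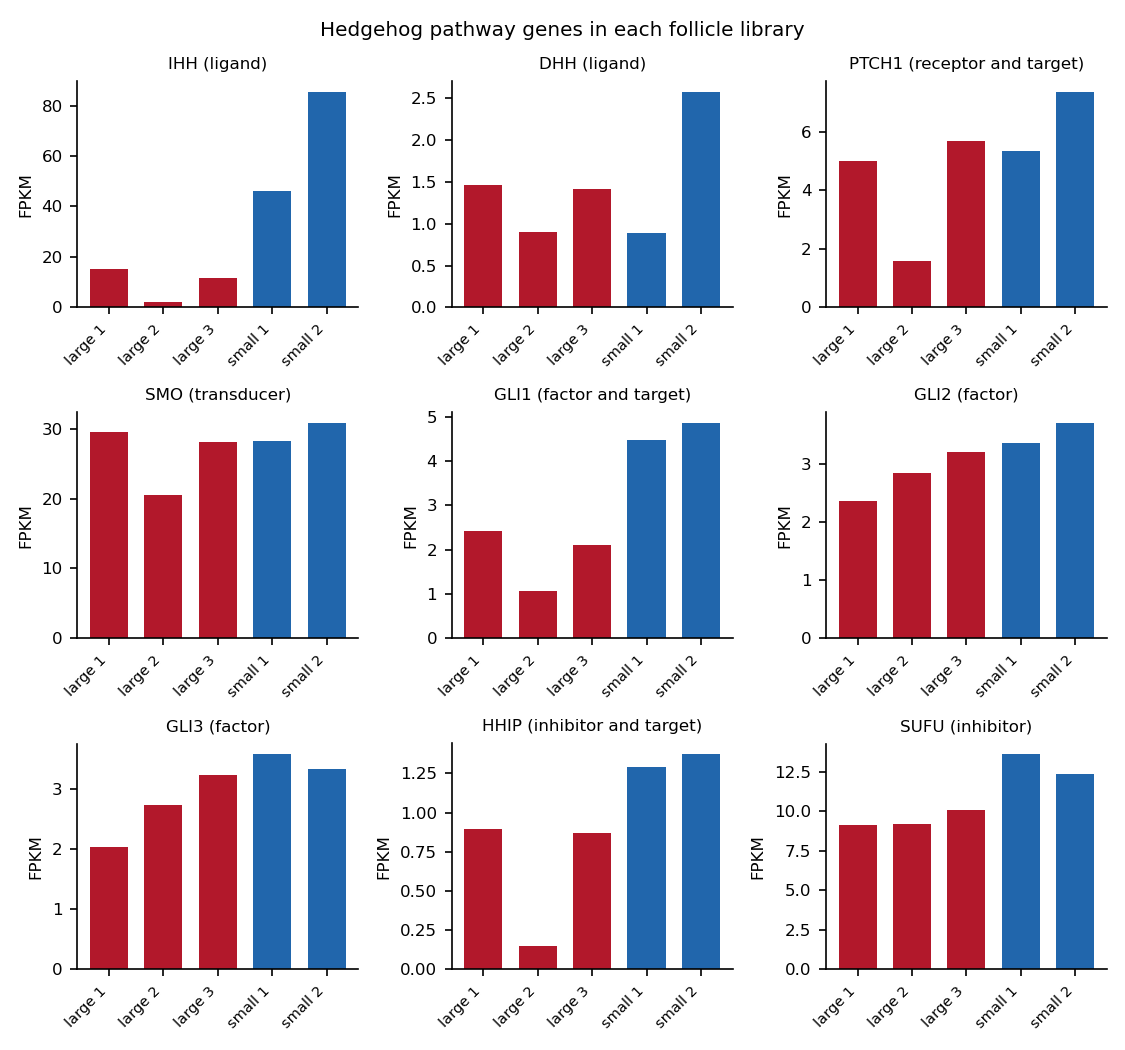
FPKM of the 9 hedgehog pathway genes in each library, with large follicles in red and small follicles in blue; each bar is 1 library and each panel has its own axis starting at 0. IHH ran from 2.10 to 85.3 FPKM, while SMO, GLI2, GLI3 and SUFU varied by less than 2-fold across the 5 libraries, and large follicle replicate 2 was lowest for IHH, PTCH1, GLI1, HHIP and SMO.

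At the receptor, PTCH1 set large follicle replicate 2 apart from the other 4 libraries more than it set large apart from small follicles. PTCH1 (gene 100627504, chromosome 10, 26627165 to 26703225) had 5.01, 1.59 and 5.69 FPKM in large follicles and 5.36 and 7.35 FPKM in small follicles. The groups overlapped, since large follicle replicate 3 exceeded small follicle replicate 1. They did not after median-of-ratios scaling, where large follicles had 4.96, 1.93 and 5.15 and small follicles 5.94 and 6.12. The log2 difference was -0.63 ± 0.42 (SE; limma adjusted p = 0.704). Small follicles held 1.55 times the mean of large ones, and 1.19 times without large follicle replicate 2. The mean of the other large follicle libraries was 3.36 times the value of replicate 2, which rested on 118 fragments (exact Poisson 95% interval 1.32 to 1.91 FPKM, counting error only). A long noncoding RNA, LOC106505124, lies on the opposite strand across 4238 bases of the PTCH1 locus at 0.251 to 0.799 FPKM, and no source used here says whether counting used the strand.

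SMO, the membrane protein that PTCH1 restrains, was even across libraries apart from large follicle replicate 2. SMO (gene 100515110, chromosome 18, 19450730 to 19478796) had 29.5, 20.6 and 28.1 FPKM in large follicles and 28.2 and 30.8 FPKM in small follicles. Replicate 2 of the large follicles lay 1.40-fold below the mean of the other large follicle libraries. The groups overlapped, with a log2 difference of -0.19 ± 0.23 (SE; limma adjusted p = 0.869). The highest library exceeded the lowest 1.498-fold for SMO, and 80.1% of all genes tested varied at least as widely. After median-of-ratios scaling the ratio was 1.26.

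Among the GLI factors, the target gene GLI1 stood lower in every large follicle library, while the means of GLI2 and GLI3, the factors that act first, differed 1.26-fold and 1.296-fold. GLI1 (gene 100520490, chromosome 5, 22736325 to 22747421), a transcriptional activator made in response to the signal, had 2.41, 1.06 and 2.11 FPKM in large follicles and 4.47 and 4.85 FPKM in small follicles. The groups did not overlap, and large follicle replicate 2 was again the lowest, at 45 fragments. The means were 1.86 ± 0.711 FPKM (SD, n = 3) and 4.66 ± 0.269 FPKM (SD, n = 2), 2.50-fold higher in small follicles. The log2 difference was -1.02 ± 0.31 (SE), with a limma adjusted p = 0.235 that ranged from 0.0967 to 0.789 over the alternatives.

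GLI2 (gene 100520334, chromosome 15, 30312528 to 30580272), the main activator of the first response, had 2.37, 2.84 and 3.20 FPKM in large follicles and 3.37 and 3.70 FPKM in small follicles. GLI3 (gene 100516888, chromosome 18, 52403463 to 52697906), which mostly acts as a repressor when no ligand is bound, had 2.02, 2.73 and 3.22 FPKM in large follicles and 3.57 and 3.32 FPKM in small follicles. Large follicle replicate 1, not replicate 2, was the lowest library for both. Their log2 differences were -0.26 ± 0.28 and -0.29 ± 0.29 (SE; limma adjusted p = 0.845 and 0.828). The groups did not overlap as deposited and overlapped for both genes after median-of-ratios scaling.

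Both inhibitors, HHIP and SUFU, had lower values in large follicles as deposited, and neither was called. HHIP (gene 100525059, chromosome 8, 83583735 to 83678368), a surface protein that captures ligand and is induced by the pathway, had 0.898, 0.149 and 0.867 FPKM in large follicles and 1.29 and 1.37 FPKM in small follicles. Large follicle replicate 2 held 13 fragments of HHIP (exact Poisson 95% interval 0.0795 to 0.255 FPKM), and the groups did not overlap. The mean was 2.09-fold higher in small follicles, and 1.51-fold without large follicle replicate 2. The log2 difference was -0.55 ± 0.29 (SE; limma adjusted p = 0.583). The first 451 bases of the HHIP locus also belong to LOC100525237 on the opposite strand, a protein-coding gene that had 2.48, 0.572 and 2.12 FPKM in large and 2.92 and 1.42 FPKM in small follicles, so some fragments may be shared.

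SUFU (gene 100155412, chromosome 14, 113500001 to 113628064), which binds GLI proteins in the cytoplasm, had 9.17, 9.18 and 10.1 FPKM in large follicles and 13.6 and 12.4 FPKM in small follicles. The groups did not overlap as deposited, with a log2 difference of -0.42 ± 0.24 (SE; limma adjusted p = 0.627). After median-of-ratios scaling they overlapped, since large follicle replicate 2 then exceeded small follicle replicate 2, at 10.3.

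As a list, 0 of the 9 genes were called by limma, where 0.978% of all genes tested were called. Voom on the recovered fragments also called 0 of 9, and 0.535% of all genes. At an unadjusted p under 0.05 limma gave 2 of 9, IHH and GLI1, where 10.4% of all genes passed. All 9 had a lower mean value in large follicles, as had 60.1% of all genes. The median log2 difference was -0.42 for the 9 genes and -0.08 for all genes tested. IHH, GLI1, GLI2, GLI3, HHIP and SUFU, 6 of 9, lay lower in large follicles without overlap, against 15.2% of all genes. After median-of-ratios scaling there were 4 of 9, IHH, PTCH1, GLI1 and HHIP, against 14.5% of all genes.

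**Figure D2:**
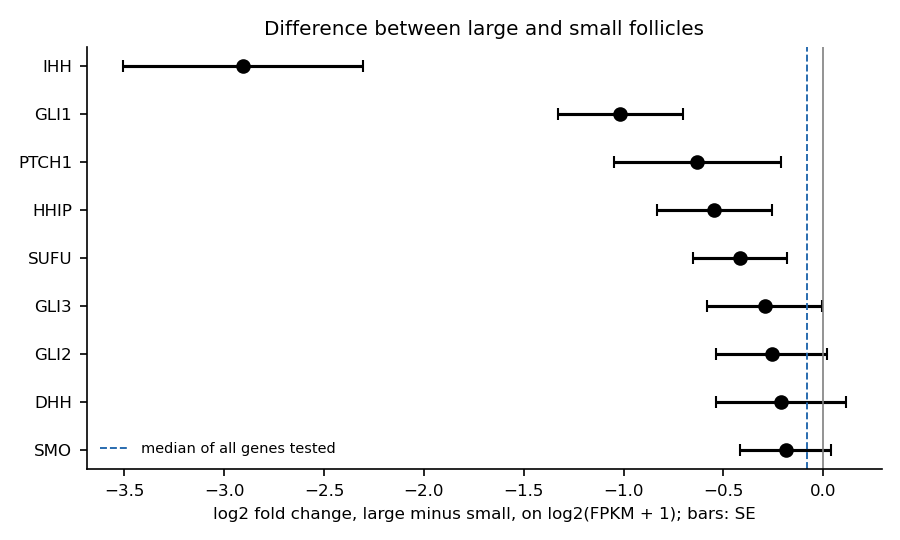
Log2 fold change of large minus small follicles for each of the 9 genes on the log2(FPKM + 1) scale (points) with its standard error (bars); the dashed line is the median of all genes tested, -0.08, and the grey line is 0. IHH lies at -2.91 and GLI1 at -1.02, and the other 7 lie between -0.63 and -0.19.

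The order of levels changed between the follicle sizes at its upper end. In large follicles SMO led at 26.1 ± 4.81 FPKM (SD, n = 3), above IHH and SUFU, whose ranges overlapped. In small follicles IHH led, above SMO at 29.5 ± 1.84 FPKM (SD, n = 2) and SUFU at 13.0 ± 0.874 FPKM (SD, n = 2), with no overlap between these neighbours. Below SUFU and PTCH1, GLI1 ranked under GLI2 and GLI3 in large follicles, with overlapping ranges, and above both in small follicles, without overlap. HHIP had the lowest mean in both groups, and its range overlapped with that of DHH in small follicles; in large follicles the ranges of HHIP and DHH met too, at 0.898 and 0.897 FPKM.

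Whether the target genes follow the ligand across libraries can be read only as an order, because 5 libraries are too few for a correlation. For IHH the order from high to low was small follicle replicate 2, small follicle replicate 1, and large follicle replicates 1, 3 and 2. GLI1 and HHIP had exactly this order, as had 1.86% of all genes tested. PTCH1 and SMO, the latter no target, kept both ends of it, small follicle replicate 2 and large follicle replicate 2. This arrangement of the ends was shared by 27.4% of all genes. DHH, GLI2, GLI3 and SUFU did not have large follicle replicate 2 at the bottom. The match at the top of the order depended on the scaling: after median-of-ratios scaling the small follicle libraries swapped places for GLI1 and HHIP, and 0 of the other 8 genes had the order of IHH, against 1.06% of all genes. Large follicle replicate 2 was the lowest library of IHH, PTCH1, GLI1, HHIP and SMO as deposited, 5 of 9 genes, against 43.0% of all genes tested. It stayed the lowest for these 5 after the scaling. The share of all genes was not counted after scaling, so this second count cannot be set against it.

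The targets varied over a narrower range than the ligand. The highest library exceeded the lowest 40.7-fold for IHH, 9.19-fold for HHIP, 4.61-fold for PTCH1 and 4.58-fold for GLI1. Ranges at least as wide were found in 1.43%, 2.91%, 7.47% and 7.63% of all genes tested, respectively. IHH exceeded GLI1 in FPKM 6.22-fold, 1.98-fold and 5.41-fold in large follicles, and 10.3-fold and 17.6-fold in small follicles. IHH exceeded HHIP 16.7-fold, 14.1-fold and 13.2-fold in large follicles, and 35.8-fold and 62.2-fold in small follicles.

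The log2 ratio of each of the 3 targets to IHH did not overlap between the groups, but nor did that of the other 5 members, and 99.2% of all other genes tested had a ratio to IHH that was higher in large follicles without overlap. A separated ratio to IHH is thus not particular to the targets. For SMO, which is no target, the ratio was 0.93, 2.80 and 1.22 in the large follicle libraries, against -0.69 and -1.44 in the small ones. For the targets the ratio was higher in large follicles by 1.89 for GLI1, 2.27 for PTCH1 and 2.36 for HHIP on the log2(FPKM + 1) scale. Each had an exact two-sided permutation p = 0.2, the smallest that 3 against 2 libraries allow, and an adjusted p = 0.257 over the 9 ratios computed. Against DHH the ratios of PTCH1 and HHIP overlapped between the groups (exact two-sided permutation p = 0.6), and that of GLI1 was lower in large follicles by 0.81 (log2 difference -0.81) without overlap (exact two-sided permutation p = 0.2).

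**Figure D3:**
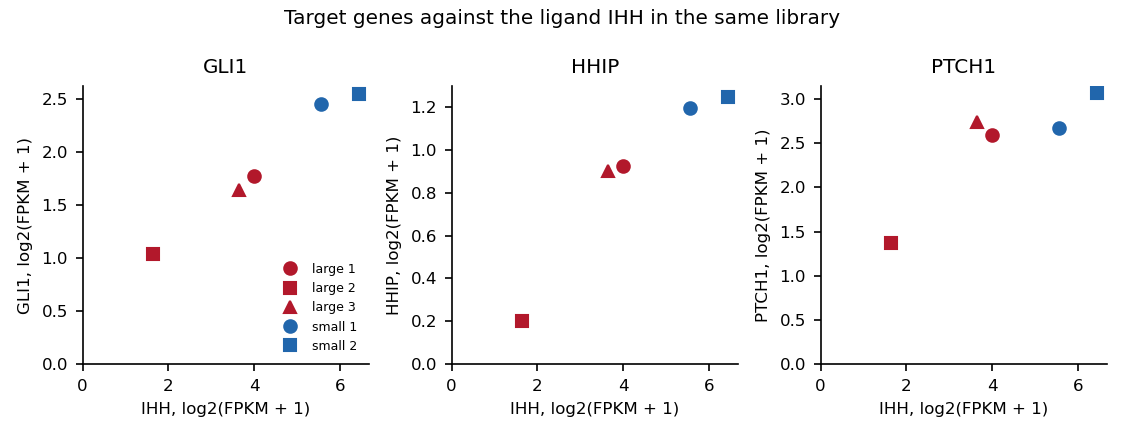
Level of GLI1, HHIP and PTCH1 (y axis) against that of IHH (x axis) in the same library, both as log2(FPKM + 1), with large follicles in red and small follicles in blue. Large follicle replicate 2 (red square) is lowest for all 4 genes plotted, and small follicle replicate 2 (blue square) is highest for all 4, IHH included.

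Among genes that bind ligand at the cell surface, limma called 0 of 5 tested, and 0 passed at an unadjusted p under 0.05. Of these co-receptors and surface binding proteins 2 had higher and 3 lower values in large follicles, with a median log2 difference of -0.02, and the groups overlapped for all 5 as deposited. After median-of-ratios scaling GPC6 alone of these 5 did not overlap and lay higher in large follicles. GAS1, which presents ligand to PTCH1, had 48.5, 21.2 and 56.7 FPKM in large follicles and 33.5 and 35.9 FPKM in small follicles (log2 difference 0.16 ± 0.36 SE, limma adjusted p = 0.936). Large follicle replicate 2 was lowest for GAS1 too, but the small follicle libraries lay inside the range of the large ones. CDON, another co-receptor, had a log2 difference of -0.06 ± 0.31 (SE; limma adjusted p = 0.976).

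Over all 5 pathway lists limma called 0 of 48 tested genes and voom 0, and 2 passed limma at an unadjusted p under 0.05 (EVC and MYCN), where limma called 0.978% and voom 0.535% of all genes tested and 10.4% passed at that unadjusted p. Of 5 tested genes that process or release ligand, 2 had higher and 3 lower values in large follicles, with a median of -0.04. HHAT, which attaches the palmitate that ligands need, and DISP1, which releases them from the cell, had log2 differences of -0.11 ± 0.29 and 0.29 ± 0.27 (SE). SCUBE3, a secreted carrier of ligand, had -0.70 ± 0.34 (SE; limma adjusted p = 0.542). SCUBE1 had 0.33 ± 0.28 (SE; limma adjusted p = 0.791). As deposited, DISP1 and SCUBE1 lay higher in large follicles without overlap, opposite in direction to IHH. None of the 5 tested genes of this list lay lower without overlap, and 26.1% of all genes did not overlap in either direction. DISP2, too low to be tested at 0.230 to 0.527 FPKM, lay lower in large follicles without overlap. DISP1 and SCUBE1 stayed higher in large follicles without overlap after median-of-ratios scaling.

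Of 16 tested regulators between SMO and GLI, 2 had higher and 14 lower values, with a median of -0.15. EVC, which relays SMO activity at the cilium, had 7.77, 10.9 and 8.55 FPKM in large follicles and 17.3 and 12.2 FPKM in small follicles (limma adjusted p = 0.449), and its groups overlapped after median-of-ratios scaling. STK36, a kinase of the GLI complex, and KIF7, a ciliary kinesin, had log2 differences of -0.59 ± 0.27 and -0.49 ± 0.25 (SE). Their groups did not overlap before or after this scaling. As deposited 3 of the 16 lay lower in large follicles without overlap, against 15.2% of all genes. After scaling KIF7, STK36 and CSNK1A1 lay lower without overlap, against 14.5% of all genes, and ARRB2 lay higher without overlap. Of 14 tested primary cilium genes, 4 had higher and 10 lower values, with a median of -0.13. As deposited, 1 of the 14 did not overlap between the groups, where 26.1% of all genes did not: IFT172, a carrier protein of the cilium, at -0.37 ± 0.25 (SE; limma adjusted p = 0.713). After the scaling IFT172 overlapped too, with 11.8 in large follicle replicate 2 and 11.0 in small follicle replicate 2, while IFT122 lay lower and TULP3 higher in large follicles without overlap.

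Among 8 tested genes reported as hedgehog targets in other tissues, 1 had higher and 7 lower values, with a median of -0.31. MYCN, a growth-promoting transcription factor, had 1.94, 0.510 and 2.10 FPKM in large follicles and 3.78 and 4.95 FPKM in small follicles. Its groups did not overlap, and large follicle replicate 2 was again lowest (log2 difference -1.15 ± 0.36 SE, limma adjusted p = 0.253). In this list 3 of 8, MYCN, SFRP1 and CCND1, lay lower in large follicles without overlap as deposited, against 15.2% of all genes. After median-of-ratios scaling these 3 and BCL2 lay lower without overlap, against 14.5% of all genes. The cell cycle gene CCND1 had the library order of IHH over a range of 4.65 to 7.40 FPKM (limma adjusted p = 0.804), an order that 1.86% of all genes had. CCND1 lost it after median-of-ratios scaling, with 5.79, 5.62 and 4.93 in large and 6.85 and 6.16 in small follicles. CCND2 had log2 difference -0.62 ± 0.43 (SE; limma adjusted p = 0.717), with large follicle replicate 2 second highest.

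**Figure D4:**
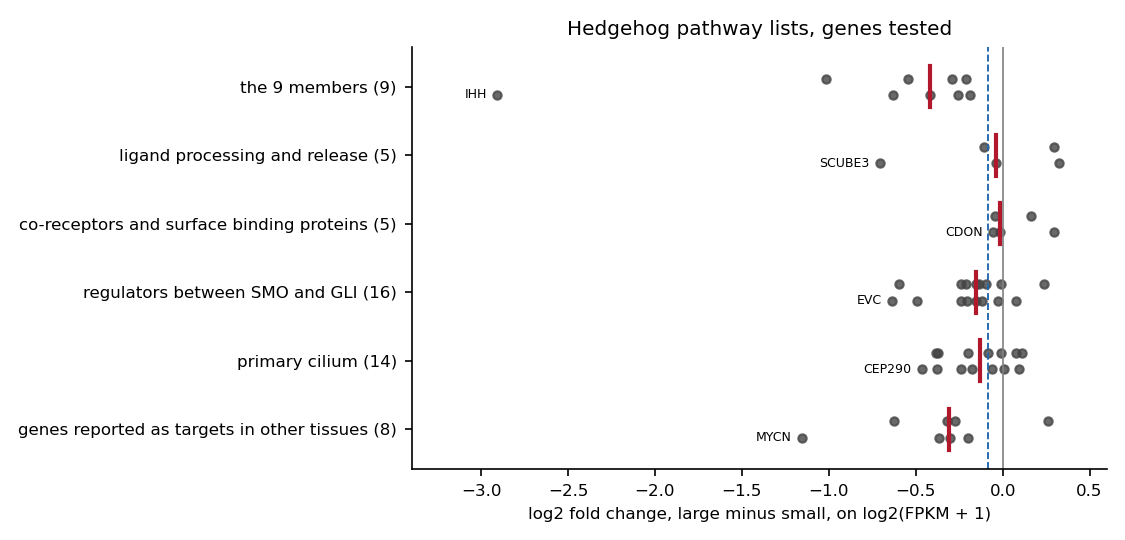
Log2 fold change of large minus small follicles for each tested gene (points) of the 9 members and of 5 further pathway lists, with the number tested in brackets; red bars are list medians, the dashed line is the median of all genes tested and the gene of the lowest value in each list is named. IHH at -2.91, MYCN at -1.15 and GLI1 at -1.02 lie apart from the rest.

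Cell type markers moved with the ligand only in part. FSHR, the granulosa receptor of follicle-stimulating hormone, had 5.47, 1.20 and 8.06 FPKM in large follicles and 15.5 and 16.6 FPKM in small follicles, with the same lowest library and the same direction as IHH. INHA, another granulosa gene, ran the other way, highest in large follicle replicate 2 at 11740 FPKM. Of 8 tested granulosa markers, 6 had lower and 2 higher values in large follicles. As deposited 5 of the 8 lay lower without overlap, against 15.2% of all genes, and 2 lay higher without overlap. At an unadjusted limma p under 0.05 there were 6 of the 8, where 10.4% of all genes passed. AMH had the library order of IHH as deposited, as had 1.86% of all genes, over a range of 6.665 to 17.49 FPKM. It lost this order after median-of-ratios scaling. Of the 8, 1 was called, INHBB (log2 difference -2.94 ± 0.47 SE, limma adjusted p = 0.0237), against 0.978% of all genes. The summed level of the 9 granulosa markers was 5210 to 13300 FPKM in large and 3828 to 5322 FPKM in small follicles, with none at 0 in all libraries. INHA made up 66.1% to 88.2% of that sum in each library, and without it the sums overlapped, at 736 to 1566 FPKM in large and 952 to 1806 FPKM in small follicles.

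Of 7 tested theca markers, 5 had higher and 2 lower values in large follicles. Of the 7, 1 was called, CYP17A1, higher in large (log2 difference 3.07 ± 0.44 SE, limma adjusted p = 0.0121), against 0.978% of all genes. Their summed level was 3662 to 6156 FPKM in large and 2347 to 2700 FPKM in small follicles. It was highest in large follicle replicate 2, where IHH, PTCH1, SMO, GLI1 and HHIP were lowest. Of the 6156 FPKM there, CYP17A1 had 2451, ACTA2 2433 and INSL3 1115. The sum thus rests mostly on these genes and does not measure the amount of theca. PDGFRA and NR2F2, markers of the theca and its precursors, had 19.5 and 25.0 FPKM in large follicle replicate 2, the lowest of the 5 libraries for both as deposited. After median-of-ratios scaling this held for NR2F2 and not for PDGFRA, whose lowest value was then 23.5 in large follicle replicate 1 against 23.6 in replicate 2. PDGFRA and NR2F2 were the 2 of the 7 with lower values in large follicles. TCF21, of the same list, went the other way. It had 38.8 FPKM in large follicle replicate 2 as deposited and 46.9 after the scaling, then the highest of the 5 libraries. Of 6 tested myeloid markers and 3 tested red blood cell markers, all had higher values in large follicles, with summed levels of 148 to 253 against 81.6 to 91.2 FPKM and of 1003 to 1675 against 233 to 701 FPKM. The median log2 differences were 0.15 for oocyte, -0.16 for smooth muscle, 0.11 for endothelial, 0.28 for lymphocyte and 1.07 for surface epithelium markers. These lists held 6, 6, 6, 3 and 2 tested genes, in that order. Limma and voom called 0 of them, against 0.978% and 0.535% of all genes tested. At an unadjusted limma p under 0.05 there were 7, where 10.4% of all genes passed. The part of any of these cell types in the hedgehog values was not tested.

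The genes whose profile over the 5 libraries was most like that of a member were named by the smallest root mean square difference of centred log2(FPKM + 1) values, among genes with a mean of at least 5 FPKM. For IHH these were MT1A, CXCL10, AMY2, CXCL9 and FSHR, at 0.34, 0.59, 0.67, 0.67 and 0.69. For PTCH1 they were MATN2, SNX31, MYLIP, RHOBTB3 and OTUD1, at 0.07 to 0.10. For GLI1 they were METTL17, PLXDC1, SLC39A2, PKIA and PLK1, at 0.07 to 0.14. Of the 13087 genes tested, GLI1 itself counted, 146 were closer to GLI1 than HHIP was, and 598 were closer than PTCH1. To IHH, with IHH itself counted, 113 genes were closer than GLI1, 186 than PTCH1 and 619 than HHIP. For DHH, SUFU, SMO, GLI2 and GLI3 the numbers were 3454, 3598, 3781, 6081 and 6426. These distances used the values as deposited, without scaling of the libraries.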

How the data were processed

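RNA was taken from follicles with TRIzol and made into paired-end libraries with a stranded mRNA kit, per the labels' protocols. The authors deposited 1 file of FPKM values per library. Per the submitters' processing notes, HISAT2 2.0.5, featureCounts 1.5.0-p3, StringTie 1.3.3, Trimmomatic 0.38, FastQC 0.11.4 and build Sscrofa11.1 were used, with no role stated. Chromosome numbers came from a RefSeq gene table of that build, which matched 30335 of 30822 identifiers.

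Library totals were found from the FPKM steps of low genes. Whole fragments, within 0.001, followed with the listed gene length for 49.5% of the 23353 genes above 0 and with a shorter searched length for the rest; for each of the 9 genes exactly 1 length fitted. No 2 libraries of 1 group agreed within sampling noise (chi-square per degree of freedom of at least 31.2).

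The test was limma 3.58.1 (R 4.3.3) on log2(FPKM + 1), two-sided, fitting the group alone and a variance trend over mean level, with Benjamini-Hochberg adjustment over all 13087 genes. It was tested on simulated data. Ratios were tested by exact permutation over libraries. Alternatives were pseudocounts of 0.1 and 5, other filters, scalings and variance models, a replicate block, voom, and each library left out.

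The named genes were the 9 members, the called genes of each list or up to 4 with the smallest p, and the 5 closest profiles for IHH, PTCH1 and GLI1; other list genes were chosen after their values were seen. The members and lists were chosen with earlier results of these data known. Promoter motifs were not analysed here. A gene of the pathway lists is not reported here.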

Additional observations from a re-analysis of the deposited data

How the results depend on the processing

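In each alternative with all 5 libraries, every one of the 9 genes that passed its filter stayed lower in large follicles, and no gene other than IHH was called. IHH was called with libraries scaled to a common sum (log2 difference -3.02), with median-of-ratios scaling (-2.83), with a pseudocount of 5 (-2.36) and with a replicate block (-3.18), 1 of 9 genes each time, where these fits called 1.16%, 1.54%, 0.818% and 1.2% of all genes. Leaving out 1 library at a time gave IHH differences from -3.36 to -2.18, with 0 to 1 of the 9 genes called. It gave DHH differences from -0.67 to 0.25, which turned positive without small follicle replicate 2, and HHIP minus DHH ratios from -0.77 to 0.10, positive without small follicle replicate 1; the cause was not tested. Over all genes the count called was 128. It was 32 with every gene above 0 kept and 41 where the mean had to reach an FPKM of 5. Scaling by the median of ratios gave 202, quantiles 201 and voom 70, and leaving out 1 library gave 29 to 284. Scaling to a common sum moved the median of all genes from -0.08 to -0.19. The replicate block left 1 residual degree of freedom and called 157 genes. Same-numbered libraries deviated from their group means with correlations of -0.00148 and -0.449. The 2 small follicle libraries deviate from their mean by opposite amounts, so these correlations cannot tell whether samples pair. The numbers are not taken to pair samples because the labels state no pairing. Each gene had 1 row, so summing rows was not run. DHH and HHIP rest on 13 to 120 fragments per library, which limits their precision.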
